A study of Mus musculus with 12 samples.

Results

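The Notch genes described here are 10 mouse genes taken by name, of 49943 genes placed on chromosomes 1 to 19, X and Y: the receptors Notch1, Notch2 and Notch3, the ligands Jag1, Jag2, Dll1 and Dll4, and the target genes Hes1, Hey1 and Heyl. They were followed in CUT&Tag libraries, in which a transposase tethered to an antibody cuts out the DNA around a histone mark. H3K4me3, found at active promoters, and H3K27me3, which Polycomb proteins lay down at silenced genes, were mapped in mouse breast cancer organoids derived from the PyMT model, in which the polyomavirus middle T antigen drives mammary tumours. The organoids, called tumoroids or spheroids in the labels and given as genotype WT, had received a control treatment (Ctrl), SR2 or THC, and were taken 3 days after treatment, with 2 libraries per mark and treatment. THC is the plant cannabinoid tetrahydrocannabinol, and the title of the series concerns the cannabinoid receptor CB2R. What SR2 stands for, the content of the control treatment, the promoter of the PyMT transgene and the number of tumours behind the organoids are not given in the sources used here. The labels do not say whether replicates 1 and 2 were separate cultures, so p-values measure only the spread between these libraries, which may be technical.

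Notch receptors sit in the membrane and are switched on by ligands of the Jagged and Delta families on a neighbouring cell. A protease complex then frees the intracellular part of the receptor, which enters the nucleus, binds the DNA-binding protein RBPJ and turns on repressors of the Hes and Hey families. In the mammary gland Notch signalling is known for its part in luminal cell fate, and an active intracellular Notch fragment can drive mammary tumours in mice.

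Promoter sequences, from 250 bases before to 50 bases after the start, were taken from NCBI RefSeq (GRCm38.p6, the assembly of mm10), which held entries for 7 of the 10 genes, with 2 starts for Dll1. The 250 bases upstream of the start are shown for 3 of them, 5′ to 3′ on the strand of the gene. They were chosen because H3K4me3 had the highest fold enrichment at Notch2, was widest at Jag1 in every library but THC replicate 1 and was absent from the THC peak lists at Dll4. Capitals mark the dinucleotide CpG, the site of DNA methylation in mammals. The Notch2 bases lie on the plus strand at chr3:98013288-98013537, those of Jag1 on the minus strand at chr2:137116521-137116770, and those of Dll4 on the plus strand at chr2:119325534-119325783.
Notch2: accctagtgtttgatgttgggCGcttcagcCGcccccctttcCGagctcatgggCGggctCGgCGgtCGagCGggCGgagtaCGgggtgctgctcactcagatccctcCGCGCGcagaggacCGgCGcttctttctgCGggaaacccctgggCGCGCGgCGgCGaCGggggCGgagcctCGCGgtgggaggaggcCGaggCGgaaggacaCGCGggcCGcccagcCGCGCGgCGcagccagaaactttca
Jag1: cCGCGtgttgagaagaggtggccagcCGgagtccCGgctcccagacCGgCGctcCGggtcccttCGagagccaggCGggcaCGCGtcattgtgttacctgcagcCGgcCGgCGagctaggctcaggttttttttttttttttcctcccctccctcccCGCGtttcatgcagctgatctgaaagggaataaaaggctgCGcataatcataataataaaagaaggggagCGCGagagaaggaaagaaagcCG
Dll4: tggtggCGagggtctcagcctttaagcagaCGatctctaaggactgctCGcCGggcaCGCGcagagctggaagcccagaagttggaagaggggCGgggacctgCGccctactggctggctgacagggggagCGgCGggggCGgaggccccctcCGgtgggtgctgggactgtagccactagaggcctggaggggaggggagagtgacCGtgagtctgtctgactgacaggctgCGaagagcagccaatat
The Notch2 stretch held 34 CpG, the Jag1 stretch 20 and the Dll4 stretch 14.

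Over the full window of 300 bases, all 8 entries held more CpG than the median of 7 over 32851 promoters. Jag2 had 63 CpG and a GC content of 86.0%, and 10 promoters of the table, Jag2 included, had as many or more. The Notch2 window held 41 CpG, and 3.46% of all promoters had as many or more. The other windows held 25 CpG at Notch3, 24 and 15 at the 2 starts of Dll1, 23 at Notch1, 22 at Jag1 and 17 at Dll4. Both strands of each window were searched for TGGGAA, the core of the site bound by RBPJ, for the E-box CACGTG, and for the TATA-box letters TATAAA and TATATAA, which can overlap each other. TGGGAA was in 0 of the 8 windows and in 25.6% of all promoters, CACGTG in 0 and 7.15%, and TATAAA in 0 and 13.6%. TATATAA was in 1 window, that of Dll4, from base −1 to base 5 counted from the start, and in 3.24% of all promoters. These letter matches describe the windows only, all of receptor or ligand genes, since the target genes Hes1, Hey1 and Heyl had no entry.

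The H3K4me3 peak lists held 11924 to 18383 peaks per library and the H3K27me3 lists 70 to 2712. The median summit pileup, the number of fragments stacked at the highest point of a peak, was 62 and 58 in the Ctrl libraries, against 36 and 54 for SR2 and 21 and 44 for THC, with replicate 1 named first here and below. THC replicate 1 had the shortest H3K4me3 list and the lowest pileups, and each THC result is given with this in view. Of the defining epithelial markers, Krt8, Epcam and Cdh1 carried H3K4me3 in 6 of 6 libraries, Krt18, Krt5 and Krt14 in all but THC replicate 1, and Trp63 in none. No library had a peak at the endothelial genes Pecam1, Cdh5 and Tek, the pericyte genes Rgs5 and Pdgfrb, the blood cell gene Ptprc or the adipocyte genes Adipoq and Plin1. Of the fibroblast genes, Col1a1 was marked in 6 libraries, over 1025 and 1045 bp in Ctrl, 901 and 1142 bp with SR2 and 292 and 360 bp with THC, and Pdgfra in none. Over the whole marker lists, a library had peaks at 6 to 10 of 10 luminal and 1 to 5 of 8 basal genes. Both counts were lowest in THC replicate 1. Peaks were listed at 1 to 3 of 10 endothelial and 0 or 1 of 6 pericyte genes. They were listed at 1 of 8 fibroblast, 0 or 1 of 8 blood cell and 0 of 4 adipocyte genes. For THC against Ctrl, the median log2 change of breadth in the limma fit described below was −0.58 over the 10 luminal genes. It was −1.72 over the 5 basal genes tested, beside −0.15 over all regions. Summed basal breadths were 8110 and 8130 bp in Ctrl and 944 and 4756 bp in THC, lowest in THC replicate 1. Summed luminal breadths were 14598 and 12503 bp in Ctrl and 5535 and 9836 bp in THC. The part of these shifts in the Notch results was not tested.

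Each Notch gene had an H3K4me3 region within 1 kb of its start, or within 1 kb of either end for Hes1, Hey1 and Heyl. A region of this kind was found at 57.4% of 21887 protein-coding genes. The breadth of the mark is given as the bp of the region that the peaks of a library cover, and 0 bp means that the library listed no peak there. All 10 Notch genes were marked in both Ctrl libraries, and 8 of them in all 6 libraries. Among protein-coding genes with a region, 81.0% were marked in all 6, so this count stood near the background. The exceptions were Dll4, marked in the Ctrl and SR2 libraries, and Heyl, marked in the Ctrl libraries alone. The covered bp of the 10 genes summed to 19195 and 16788 in Ctrl, to 15567 and 16416 under SR2 and to 8881 and 13285 under THC. THC replicate 1 had the lowest value, or a tied one, at each of the 10 genes.

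**Figure D1:**
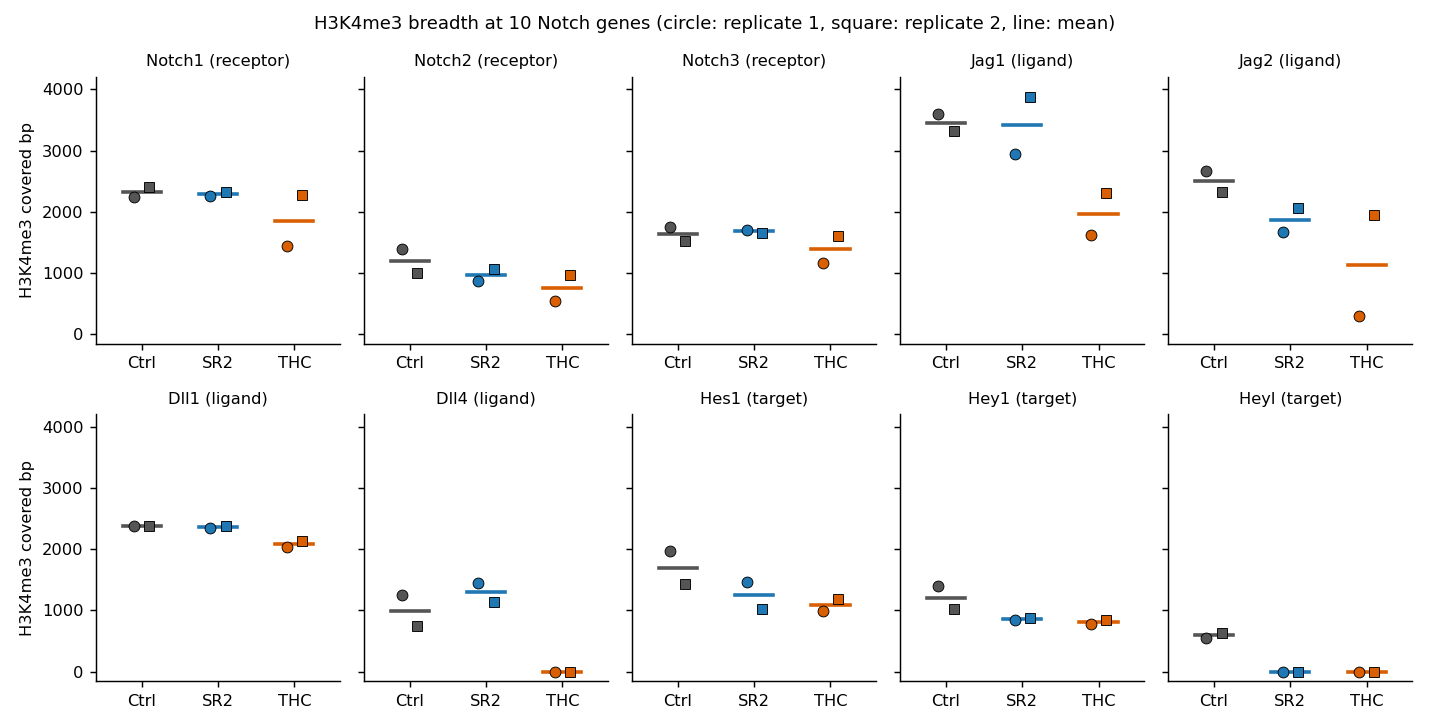
Covered bp of H3K4me3 (y axes) in each of the 6 libraries (points, grouped by treatment on the x axes) at the 10 Notch genes. Dll4 sits at 0 bp in both THC libraries and Heyl at 0 bp in both SR2 and both THC libraries, while the other 8 genes keep peaks in every library.

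Notch2, a receptor expressed in many tissues, covered 1397 and 1004 bp in Ctrl, 875 and 1074 bp with SR2, and 548 and 976 bp in THC, within chr3:98013215-98014611. The SR2 values overlapped the Ctrl values, and both THC values lay below them. By −log10 q, the deposited strength of a peak, the Notch2 peak stood at percentile 60.2 to 82.5 of its library's list, the highest of the 10 genes in every library but SR2 replicate 1 and THC replicate 1. Its deposited fold enrichment over local background ranged from 7.79 to 12.7, above that of the other 9 genes in every library. The Notch2 peak held its start in all 6 libraries and reached from at most 323 bp upstream to at most 1073 bp downstream.

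Notch1, the receptor best known from T-cell leukaemia, carried a broader mark, in chr2:26501692-26504258. It covered 2243 and 2410 bp in Ctrl, 2254 and 2328 bp with SR2, and 1436 and 2281 bp in THC. The groups overlapped in each comparison, with THC replicate 1 alone far below the rest. In that library the mark was split into 2 peaks with a gap of 519 bp. The breadth of Notch1 was at percentile 93.5 to 98.7 of the marked regions of its library. Its strength was at percentile 49.3 to 67.6. Its region is shared with Gm35978, a long noncoding RNA gene on the opposite strand, so its breadth cannot be given to Notch1 alone.

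Notch3, a receptor known for its role in vascular smooth muscle, covered 1753 and 1527 bp in Ctrl, 1709 and 1660 bp with SR2, and 1172 and 1601 bp in THC, in chr17:32165355-32167107. The SR2 values lay between the Ctrl values, and THC overlapped Ctrl through replicate 2. Summit pileups at Notch3 were 73 and 57 in Ctrl, 33 and 58 with SR2, and 18 and 40 with THC. A further region inside the gene, chr17:32161962-32162731, was covered over 707 and 663 bp in Ctrl, over 0 and 509 bp with SR2, and over 0 and 573 bp in THC. That inner region was absent from replicate 1 of both treatments, the library of each treatment with the lower median pileup.

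Of the ligands, Jag1 and Dll1 were among the broadest regions of every library. Jag1, the Jagged ligand with a broad role in development, covered 3591 and 3324 bp in Ctrl, 2950 and 3876 bp with SR2, and 1617 and 2316 bp in THC, in chr2:137113614-137117535. The SR2 values lay on either side of the Ctrl values, and both THC values lay below all 4 others. Its breadth stood at percentile 96.5 to 99.99, and its strongest peak at percentile 35.6 to 61.3 by −log10 q. Around the CpG-rich start shown above, the mark formed 1 peak in both Ctrl libraries and in SR2 replicate 2. It was broken into 2 peaks in SR2 replicate 1 and in THC replicate 1, and into 3 peaks in THC replicate 2. The start itself lay inside a peak in the 4 Ctrl and SR2 libraries and in neither THC library, where peaks on its 2 sides left gaps of 1252 and 354 bp around it. In the window of 300 bases at the start, peaks covered all 300 bases in each Ctrl and SR2 library and 18 bases in each THC library. The part of the lower THC pileups in these gaps was not tested.

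Dll1, a Delta ligand, covered 2374 and 2379 bp in Ctrl, 2347 and 2373 bp with SR2, and 2042 and 2139 bp in THC, in chr17:15374531-15376945. Its spread between replicates was small in Ctrl and SR2 (3.54 and 18.4 bp, SD, n = 2). The SR2 values lay below the Ctrl values by as little as 1 bp, and the THC values lay below all others. In the limma fit described below, where libraries were centred, the log2 changes of Dll1 had the opposite direction. They were 0.13 (SR2 against Ctrl), 0.21 (THC against Ctrl) and 0.08 (THC against SR2), with adjusted p of 0.933, 0.345 and 0.766. The 2 annotated starts of Dll1 differed in cover. The window at the inner start, chr17:15375774-15376073, was covered over all 300 bases in 6 of 6 libraries. The window at the outer start, chr17:15376883-15377182, was covered over 58 and 63 bases in Ctrl, over 0 and 28 bases in SR2, and over 0 bases in both THC libraries.

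Jag2, the other Jagged ligand, covered 2675 and 2317 bp in Ctrl, 1669 and 2057 bp with SR2, and 302 and 1950 bp in THC, in chr12:112927108-112930106. Both SR2 values and both THC values lay below the Ctrl values, and THC replicate 1 stood apart from every other library. Summit pileups at Jag2 were 75 and 60 in Ctrl, 28 and 53 with SR2, and 10 and 36 with THC. The start of Jag2 lay inside a peak in SR2 replicate 1 alone. In 4 of the other 5 libraries, peaks on both sides left a gap of 282 to 382 bp around the start, and in THC replicate 1 the single peak began 134 bp downstream. The window with 63 CpG was thus covered over 300 bases in SR2 replicate 1 and over 0 to 63 bases in the other 5 libraries.

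**Figure D2:**
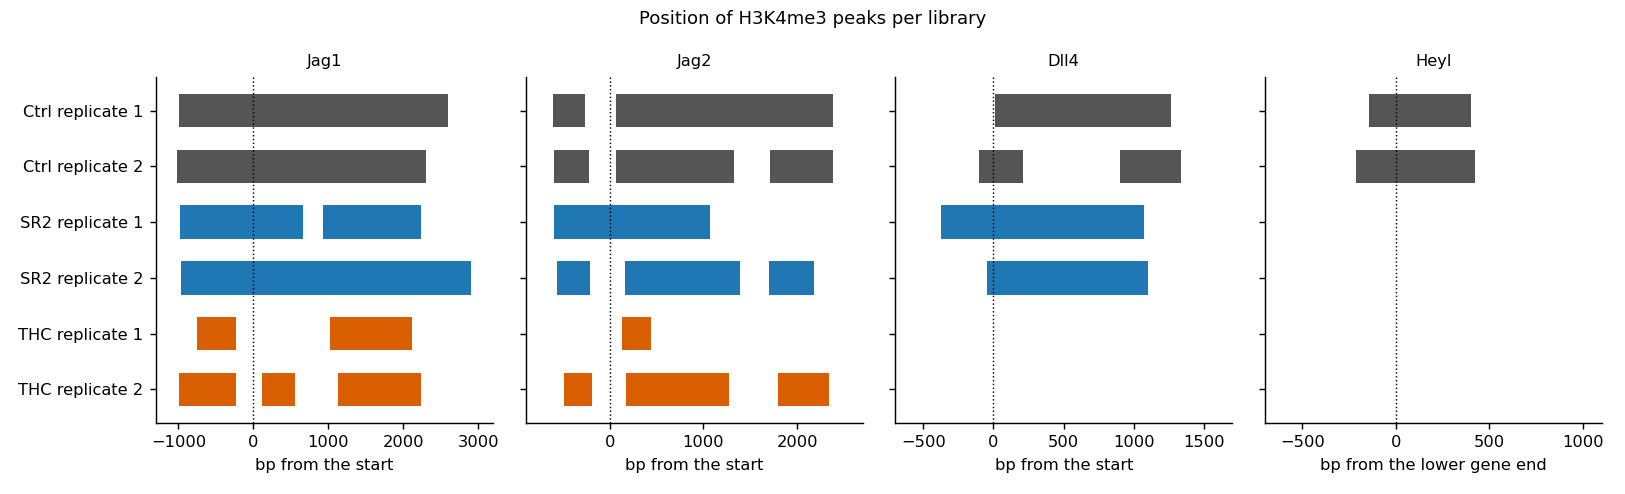
Position of the H3K4me3 peaks (bars, 1 row per library) along Jag1, Jag2, Dll4 and Heyl, in bp from the start of the gene or, for Heyl, from its end of lower coordinate (x axes). Peaks of both THC libraries leave out the start of Jag1, those of 5 libraries leave out the start of Jag2, and the rows of THC are empty at Dll4 and those of SR2 and THC at Heyl.

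**Figure D3:**
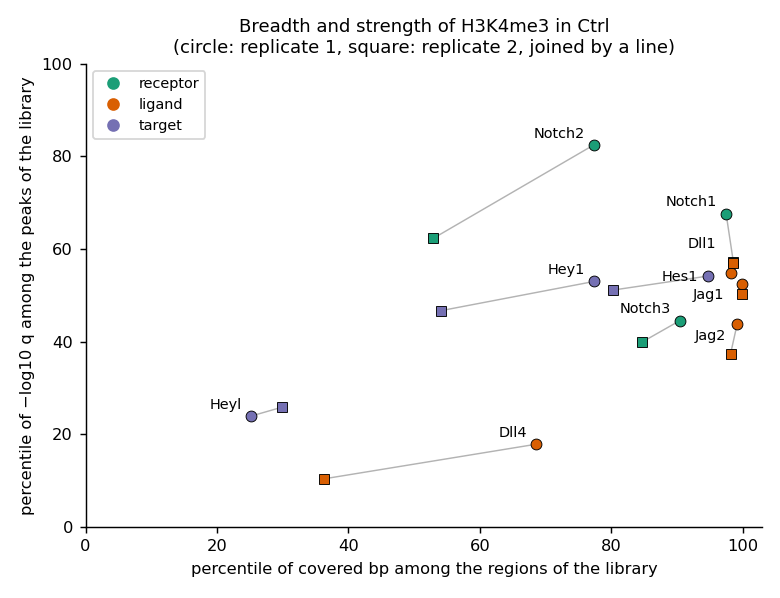
Percentile of covered bp among the regions of the library (x axis) against percentile of −log10 q among its peaks (y axis) for the 10 Notch genes in the 2 Ctrl libraries, coloured by role. Jag1, Dll1, Jag2 and Notch1 stand at percentile 97.5 or more in breadth and 67.6 or less in strength, and Dll4 and Heyl are the weakest.

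Dll4, the Delta ligand of angiogenic sprouting, was weakly marked. Its region, chr2:119325407-119327117, was covered over 1251 and 747 bp in Ctrl, over 1446 and 1142 bp with SR2, and over 0 bp in both THC libraries. The SR2 values overlapped the Ctrl values, and the THC libraries stood below all 4 others. The start lay inside a peak in Ctrl replicate 2 and both SR2 libraries, and 11 bp outside the peak of Ctrl replicate 1, while Ctrl replicate 2 had 2 peaks with a gap of 688 bp. Its summit pileups were 19 and 15 in Ctrl and 18 and 20 in SR2, and its peaks stood at percentile 17.8 and 10.3 of the Ctrl lists and 23.5 and 22.8 of the SR2 lists. The region is shared with Gm14207, a long noncoding RNA gene on the opposite strand, so the signal cannot be given to Dll4 alone. A smaller region past the other end of Dll4, chr2:119337641-119338289, was covered over 649 and 541 bp in Ctrl, 335 and 348 bp with SR2, and 0 and 478 bp in THC, so THC replicate 2 had a peak near the gene though none at its start.

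Relative to the mean pileup in Ctrl, Dll4 stood at 1.06 and 1.18 in the SR2 libraries. The median of the 8 Notch genes marked in all 6 libraries was 0.410 and 0.761 there, close to the median of 0.442 and 0.685 over the 10140 regions marked in all 6. In THC these medians were 0.235 and 0.489 for the 8 genes and 0.209 and 0.481 for all such regions. Dll4 belongs to neither set, and no set of regions with pileups as low as its own was compared. The smallest pileup of any listed peak was 5 in THC replicate 1 and 7 in THC replicate 2, against 6 in each Ctrl and SR2 library. These minima are no threshold for Dll4, since the height a peak needs rises with its local background. That background was 4.37 and 3.45 at Dll4 in Ctrl, and 3.68 and 3.46 in SR2. In THC replicate 1, the Jag2 peak had a pileup of 10 over a background of 2.49. Its −log10 q was 1.69, where the lowest of that list was 1.31. How far the lower pileups of the THC libraries account for the missing Dll4 peaks was not tested.

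**Figure D4:**
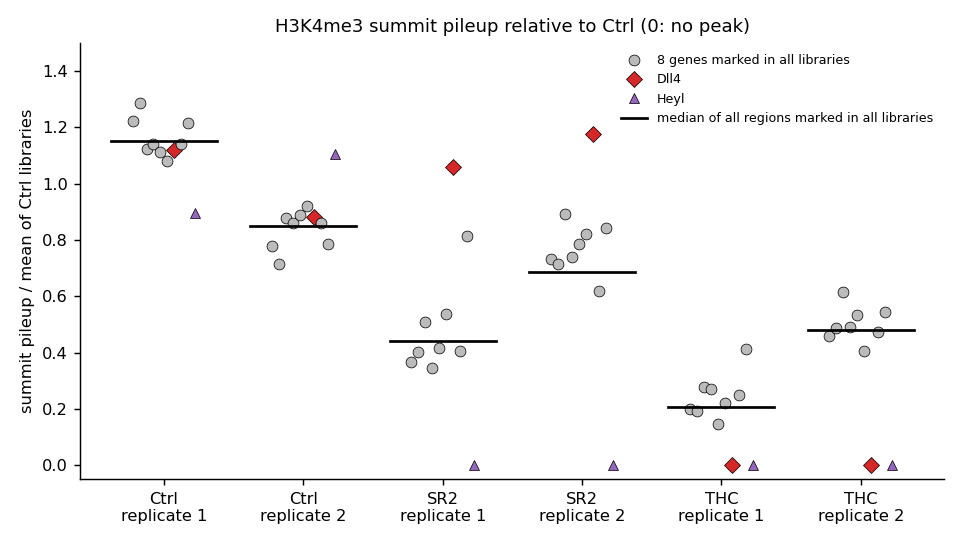
Summit pileup relative to the mean of the Ctrl libraries (y axis) in each H3K4me3 library (x axis) for the Notch genes (points, 0 where no peak was listed), with the median of the 10140 regions marked in all libraries (black lines). The 8 genes marked throughout lie around the black lines, and Dll4 lies above them in SR2, at 1.06 and 1.18, and at 0 in THC.

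In Ctrl the target genes carried narrower marks than Jag1, Jag2 and Dll1. Hes1, the repressor that is the classical first target of Notch, covered 1964 and 1425 bp in Ctrl, 1466 and 1026 bp with SR2, and 988 and 1182 bp in THC, in chr16:30065369-30067372. The SR2 values overlapped Ctrl, and both THC values lay below Ctrl and on either side of SR2 replicate 2. The Hes1 region is shared with the long noncoding RNA gene Gm32998. A flanking region, chr16:30063815-30064215, was listed in Ctrl replicate 2 (340 bp) and THC replicate 2 (401 bp) only.

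Hey1, a repressor with a role in vessels and heart, covered 1398 and 1019 bp in Ctrl, 851 and 880 bp with SR2, and 776 and 840 bp in THC, in chr3:8666695-8668092. Both treated groups lay below Ctrl, and THC below SR2 by as little as 11 bp. In the centred limma fit, THC against SR2 had the opposite direction at Hey1, 0.16 (adjusted p = 0.760). Its fold enrichment, 6.14 to 7.78, was next to that of Notch2 in every library. The Hey1 region is shared with LOC115489673, a protein-coding gene model.

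Heyl, a relative of Hey1 known from vascular smooth muscle, covered 549 and 636 bp in Ctrl and 0 bp in both SR2 and both THC libraries, in chr4:123233344-123233979. Its summit pileups in Ctrl were 13 and 16, at percentile 23.9 and 25.8 of the lists. The 4 treated libraries stood below both Ctrl libraries. The smallest pileup of any listed peak was 6 in each SR2 library, and 5 and 7 in the THC libraries. These minima hold for whole lists and are no threshold for Heyl, whose local background was 1.57 and 1.93 in Ctrl. How far the lower pileups of the treated libraries account for the missing Heyl peaks was not tested. Among the marker lists, 3 of 10 endothelial genes were marked in each Ctrl library, 2 in each SR2 library and 1 in each THC library, with summed breadths of 1819 to 2351, 971 to 1028 and 288 to 319 bp, and 7 genes of the list, with all 3 defining ones, were at 0 in every library. Of 6 pericyte genes, 0 or 1 was marked per library (up to 390 bp), 5 were at 0 throughout, and both defining ones were among these. Whether these lineages have a part in the Heyl or Dll4 values was not tested.

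Breadth was then compared between treatments with limma on log2(covered bp + 200), in 1 fit of 15772 regions marked in at least 2 libraries, with libraries centred on their median and p-values adjusted by Benjamini-Hochberg over all regions. The 3 comparisons share libraries, so their values are given side by side and not set against each other. Where no peak was listed, the size of a log2 change depends on the added 200 bp and on the centring, and is no bound on the difference in the mark. No Notch gene passed an adjusted p of 0.05 in any comparison, nor did any of the 15772 regions (0.0%).

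For SR2 against Ctrl, 1 of the 10 genes, Heyl, was narrower at an unadjusted p under 0.05, as were 8.91% of all regions, and 0 were wider (0.653% of regions). Heyl entered the fit only through its 2 Ctrl libraries, so it had to be narrower in the treated groups, and its fitted values against Ctrl are a description that supports no difference. Heyl differed by −1.85 on the log2 scale (SE 0.33, adjusted p = 0.122). Dll4 had the largest positive value, 0.48 (SE 0.32, adjusted p = 0.884). It ran from 0.21 without Ctrl replicate 2 to 3.03 with equal peak numbers from each library, where the SR2 peaks were kept and the Ctrl peaks were not. It was 0.75 without Ctrl replicate 1, 0.82 with a fixed window of 1 kb on either side of the start and 1.59 with peaks of a −log10 q of at least 5, and over all 15 alternatives the adjusted p was 0.548 or more. The other 8 genes lay between −0.25 and 0.18, and the median of the 10 was 0.0020 beside −0.03 for all regions. Among them Jag2, at −0.25, had an SE of 0.54. The spread behind this SE takes in the THC libraries, at 302 and 1950 bp, which are not part of this comparison. Without centring, or with 50 in place of 200 bp added before the log, Heyl passed the threshold (−1.98, adjusted p = 0.0153, and −3.52, adjusted p = 0.0179). In these settings 994 and 1059 of all 15772 regions passed it. The Heyl value was −0.58 with 1000 bp added and −0.82 after quantile normalization, neither past the threshold. Over its 12 alternatives the adjusted p of Heyl ran from 0.0153 to 0.850. Covered bp were lower in both SR2 libraries than in both Ctrl libraries at 4 genes, Jag2, Dll1, Hey1 and Heyl, and higher at 0, beside 49.4% and 1.76% of regions.

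For THC against Ctrl, 2 genes were narrower at an unadjusted p under 0.05, Dll4 and Heyl, and 0 were wider, beside 18.4% and 4.41% of regions. Heyl again entered the fit through Ctrl alone, and Dll4 through Ctrl and SR2 alone. With no THC peak, both had to be narrower there than in Ctrl. Their fitted values, also under the alternatives below, are a description that supports no difference. Dll4 differed by −2.17 (SE 0.32, adjusted p = 0.128) and Heyl by −1.61 (SE 0.33, adjusted p = 0.128). Jag2 differed by −0.99 (SE 0.54, adjusted p = 0.314) and Jag1 by −0.40 (SE 0.16, adjusted p = 0.223). The other 6 genes lay between −0.19 and 0.21, and the median of the 10 was −0.18 beside −0.15 for all regions. Covered bp did not overlap at 8 genes, all lower in THC, with Notch1 and Notch3 as the exceptions. The same held at 80.3% of regions, so this count stood near the background, and the reverse held at 0.19%.

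Single libraries and the scale set some of these values. Without centring, where the median over all regions was −0.52 for THC against Ctrl, Dll4 and Heyl passed the threshold (−2.55, adjusted p = 0.0140, and −1.98, adjusted p = 0.0138). They also passed it with 50 bp added (−3.92 and −3.25, each with adjusted p = 0.0263), and Dll4 passed it when regions marked in at least 1 library were tested (−2.17, adjusted p = 0.0445). Of all 15772 regions, 1914 passed without centring and 1417 with 50 bp added. With regions marked in at least 1 library, 39 of 24596 passed. The values shrank to −0.76 for Dll4 and −0.44 for Heyl with 1000 bp added, and to −1.50 and −0.41 after quantile normalization, none past the threshold. With peaks of a −log10 q of at least 5, Dll4 was −1.07 (adjusted p = 0.507), and with equal peak numbers 0.37, where no Ctrl or THC library kept a peak. The Jag2 value was −0.08 without THC replicate 1 and −1.89 without THC replicate 2, where it passed the threshold (adjusted p = 0.00952). Dll4 passed it without THC replicate 2 as well (−2.02, adjusted p = 0.0292). In these fits the THC library left behind is assumed to vary like those of the other groups. Without THC replicate 2, many regions outside the Notch genes passed too, as counted in the last section. Over all alternatives the adjusted p ran from 0.0140 to 0.752 for Dll4, from 0.0138 to 0.541 for Heyl and from 0.00952 to 0.752 for Jag2.

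For THC against SR2, Dll4 and Jag1 were narrower at an unadjusted p under 0.05, and 0 genes were wider, beside 6.84% and 1.84% of regions. Dll4 entered the fit without any THC peak, so its values here are again a description that supports no difference. It differed by −2.65 (SE 0.32, adjusted p = 0.318) and Jag1 by −0.51 (SE 0.16, adjusted p = 0.405). Jag2 differed by −0.74 (SE 0.54, adjusted p = 0.714), a value of 0.17 without THC replicate 1 and of −1.64 without THC replicate 2 (adjusted p = 0.0127). Dll4 also passed the threshold without THC replicate 2 (−2.50, adjusted p = 0.0246), and its value was −1.05 with 1000 bp added and −4.46 with 50 bp added. Over all alternatives the adjusted p ran from 0.0246 to 0.805 for Dll4 and from 0.0127 to 0.874 for Jag2. Many regions outside the Notch genes also passed without THC replicate 2, as counted in the last section. Heyl, with no peak in any SR2 or THC library, had a value of 0.24 that comes from the centring alone. Covered bp were lower in both THC libraries than in both SR2 libraries at 5 genes, Notch3, Jag1, Dll1, Dll4 and Hey1, beside 40.6% of regions, and higher at 0, beside 0.64%.

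**Figure D5:**
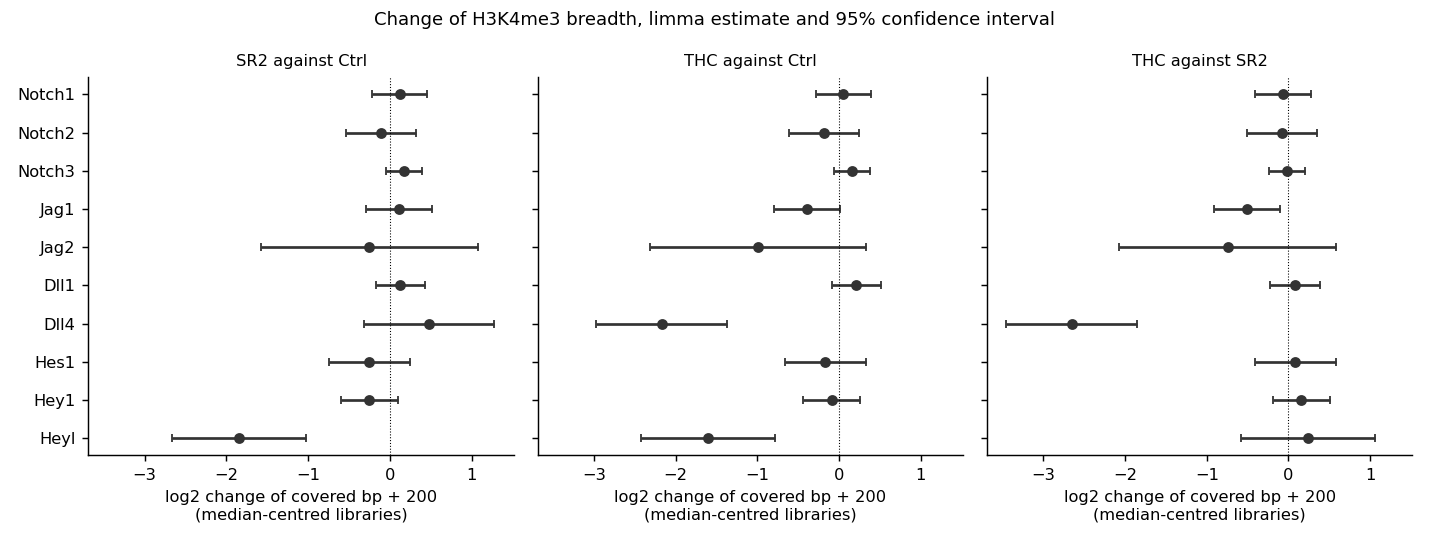
Log2 change of H3K4me3 breadth with its 95% confidence interval for each Notch gene (points and bars), on the log2(covered bp + 200) scale, in the 3 comparisons. Heyl lies at −1.85 and −1.61 against Ctrl and Dll4 at −2.17 and −2.65 in the comparisons of THC, while most other genes lie near 0 and none passed the adjusted threshold.

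Presence and absence of a peak gave small counts. Of the 10 genes marked in both Ctrl libraries, 1, Heyl, had a peak in neither SR2 library, as did 1.55% of the 11818 protein-coding genes marked in both Ctrl libraries. Dll4 and Heyl, 2 of 10, had a peak in neither THC library, as did 5.53% of these genes. Of the 9 Notch genes marked in both SR2 libraries, Dll4 had a peak in neither THC library, as did 2.31% of 11228 genes. When the strongest 11924 peaks were taken from each library, Dll4 and Heyl were no longer marked in the 2 Ctrl libraries, and the counts against Ctrl were 0.

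Genes most like Dll4 and Heyl were ranked by Euclidean distance over the 6 centred log2(covered bp + 200) values, without regard to function. Of 12033 protein-coding genes, 230 shared with Dll4 the libraries in which they were marked, and the closest were Adamts15 (distance 0.458), Atp6v1c2 (0.528) and Galnt12 (0.677). Adamts15 was covered over 1487 and 686 bp in Ctrl, 1145 and 920 bp in SR2 and 0 bp in THC. For Heyl, 152 genes shared its libraries, and the closest were Tubb3 (0.0381), Rab39 (0.0726) and Kcnab2 (0.0778). Tubb3 was covered over 569 and 637 bp in Ctrl and 0 bp in the other 4 libraries.

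The rest of the Notch pathway was followed in 45 genes. A region was found at 39 of them, and 37 of these were marked in all 6 libraries. Neurl1a and Neurl1b, ubiquitin ligases of the Neuralized family that act on ligands, lacked a peak in THC replicate 1 alone, and were named after their values were seen. No region was found at the receptor Notch4, the ligands Dll3 and Dlk1, the target Hes5, the Fringe glycosyltransferase Mfng or the Deltex gene Dtx1. No pathway gene marked throughout Ctrl was without a peak in all libraries of a treatment.

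Of the 39 pathway genes tested with limma, 0 passed the adjusted threshold in any comparison. For SR2 against Ctrl, 0 passed at an unadjusted p under 0.05. For THC against Ctrl, 3 were narrower and 1 was wider at that level, beside 18.4% and 4.41% of regions. Snw1, a nuclear cofactor of the Notch transcription complex, covered 1377 and 991 bp in Ctrl, 1063 and 849 bp with SR2, and 387 and 519 bp in THC, and differed by −0.70 (SE 0.19, adjusted p = 0.134). Pofut1, which puts fucose on Notch receptors and shares its region with Plagl2, differed by −0.37 (SE 0.11, adjusted p = 0.149). Dtx4, of the Deltex ubiquitin ligases, differed by −0.36 (SE 0.13, adjusted p = 0.184). Fbxw7, the ubiquitin ligase subunit that marks active Notch for decay and shares its region with Gm35486, was the wider one, at 0.25 (SE 0.10, adjusted p = 0.218). For THC against SR2, 2 were narrower, beside 6.84% of regions, Snw1 by −0.59 (SE 0.19, adjusted p = 0.399) and Mib2, a ubiquitin ligase for Notch ligands, by −0.30 (SE 0.12, adjusted p = 0.564). The medians of the 39 genes were 0.02, −0.01 and −0.02 for SR2 against Ctrl, THC against Ctrl and THC against SR2, beside −0.03, −0.15 and −0.03 for all regions.

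H3K27me3 over the Notch genes or their 5 kb of flank was listed in 1 library only. In Ctrl replicate 1, 3 of the 10 genes had a broad peak, beside 7.92% of 21887 protein-coding genes. The Notch2 peak, chr3:98013768-98014066, covered 299 bp from 230 bp inside the gene, and all of it lay within the H3K4me3 peak of the same treatment and replicate. The Notch3 peak, chr17:32149660-32150025, covered 366 bp inside the gene, 16865 bp from its nearer end. The Dll1 peak, chr17:15380807-15381449, covered 643 bp of flank, 3875 bp from the gene. These peaks were among the weakest of their list, at percentile 3.13, 2.95 and 0.590 by −log10 q, with deposited fold enrichments of 3.64, 3.63 and 3.36. The other 5 libraries listed 0 of the 10 genes, beside 1.11% of genes in Ctrl replicate 2, 2.96% and 0.507% in SR2, and 3.07% and 0.137% in THC. Ctrl replicate 1 had by far the longest H3K27me3 list, 2712 peaks against 387 in replicate 2, and the part of list length in these counts was not tested.

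Dll4 and Heyl, the weakest of the 10 genes in H3K4me3, had no H3K27me3 peak in any of the 6 libraries, and neither did Notch1, Jag1, Jag2, Hes1 and Hey1. Of the 45 other pathway genes, 5 had an H3K27me3 peak in Ctrl replicate 1, 3 in SR2 replicate 1, 1 in THC replicate 1 and 0 in each replicate 2, beside 7.92%, 2.96% and 3.07% of all protein-coding genes in the replicate 1 libraries.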

How the data were processed

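CUT&Tag gave 12 libraries (3 treatments, 2 marks, 2 replicates each), grouped by the treatment and antibody labels. Per the submitters' processing notes, the build was mm10 and the tools were MACS3, Bowtie2 2.5.4, cutadapt 5.2, SAMtools 1.8, bedtools, Picard and deepTools, with no roles given. The 2 protocol texts of the labels name different dissociation enzymes. The authors called peaks per library, as the deposited peak names show. Each deposited line gives a peak's start and end, a score (the whole part of a multiple of −log10 q), a fold enrichment, which is a ratio over local background, and a −log10 p and −log10 q. Per-peak values are the authors' own and were used within 1 list only. The lists hold no read totals. Summit pileups and local backgrounds were recovered from the deposited fold and −log10 p, and 100% of H3K4me3 pileups came out whole within 0.005. For H3K27me3 the depth is unknown.

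H3K4me3 peaks were merged into 24596 regions where they overlapped by at least 1 bp, and covered bp were computed per library. A gene received the region with the most covered bp within 1 kb of its RefSeq start, or of either gene end where no start was listed, as for Hes1, Hey1 and Heyl. H3K27me3 peaks were taken over the gene or 5 kb of flank. Breadth was tested with limma 3.58.1 (trend, R 4.3.3) on log2(covered bp + 200), with treatment as the only term, over all 6 H3K4me3 libraries in 1 fit of 15772 regions with peaks in 2 or more libraries. The median over the 10140 regions marked in all 6 was set equal between libraries, with Benjamini-Hochberg adjustment over all regions and a threshold of 0.05. The procedure was tested on simulated data for regions marked in all 6 libraries. Regions without a peak in a whole treatment, such as those of Dll4 and Heyl, were not simulated. Counting and ranking used Python 3.11.15 with pandas 2.3.3 and scipy 1.17.1.

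The genes and lists were chosen with earlier results of these data known. The text names all 10 Notch genes, pathway genes with an unadjusted p under 0.05 or peaks in the libraries of 1 treatment only, genes sharing a Notch gene's region, and the 3 genes nearest to Dll4 and to Heyl. The marker lists were luminal, basal, endothelial, pericyte, fibroblast, blood cell and adipocyte genes. The labels give the replicate number as the batch, which pairs the libraries. In the data, deviations of same-numbered libraries correlated at −0.0619 (Ctrl with SR2), 0.0344 (Ctrl with THC) and 0.0479 (SR2 with THC). Alternatives changed the pseudocount, centring, filter, peak threshold, peak number, window, block and libraries used.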

Additional observations from a re-analysis of the deposited data

Results flagged for a closer look

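Dll4 was singled out by its H3K4me3 breadth. Both SR2 libraries (1446 and 1142 bp) lay above the Ctrl mean of 999.0 bp, and both THC libraries (0 bp) lay below it. In the limma fit, THC against SR2 had a log2 change of −2.65 (SE 0.32) and an adjusted p of 0.318. Values were lower in 2 of 2 THC libraries. Dll4 was picked from these same values, so the fit describes them and is no separate test. Dll4 did not pass the threshold, and its SR2 values overlapped Ctrl.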

How the results depend on the processing

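The replicate block left 0 regions called in each comparison and changed no call of a Notch gene. Regions called at an adjusted p under 0.05 numbered 0 under the reported settings. Of 15772 regions, they became 1059 for SR2 against Ctrl and 1417 for THC against Ctrl with 50 bp added before the log. Without centring they became 994 and 1914. For THC against Ctrl they became 39 when a region needed a peak in 1 library at least, and 4 with equal peak numbers in all libraries. With 1 library left out they ranged from 0 to 2183 for THC against Ctrl and from 0 to 1189 for THC against SR2, the highest values without THC replicate 2. The cause was not tested. Notch genes marked in Ctrl but in neither SR2 library became 0 with equal peak numbers. Those in neither THC library became 1 with a −log10 q of at least 5 and 0 with equal peak numbers. Notch genes with H3K27me3 in Ctrl replicate 1 became 0 with a −log10 q of at least 2 and 1 with 500 bp of overlap.

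Of 441 values of single Notch genes under alternatives, 398 kept their direction and side of the threshold, 11 passed it and 32 changed sign, in 19 of 30 gene comparisons, none with an adjusted p under 0.05. Without centring, SR2 against Ctrl gave −0.020 for Notch1, −0.029 for Jag1 and −0.0093 for Dll1. THC against Ctrl gave −0.33 for Notch1, −0.22 for Notch3 and −0.17 for Dll1. THC against SR2 gave −0.16 for Dll1, −0.16 for Hes1 and −0.081 for Hey1. A fixed window of 1 kb on either side of the start gave 0.18 for Jag2 (SR2 against Ctrl), −0.16 for Notch1 (THC against Ctrl), and 0.081 for Notch3 and −0.36 for Hes1 (THC against SR2). For THC against Ctrl, Notch1 was −0.0043 with 1000 bp added, −0.026 after quantile normalization and −0.50 with a −log10 q of at least 5. Dll4 was 0.37 with equal peak numbers, where no Ctrl or THC library kept a peak and centring alone sets the value. With 1 library left out, SR2 against Ctrl ran from −0.27 to 0.057 for Notch2, −0.025 to 0.25 for Jag1 and −0.52 to 0.019 for Hes1. THC against Ctrl ran from −0.10 to 0.22 for Notch1, −0.36 to 0.0089 for Notch2 and −0.25 to 0.063 for Hey1. THC against SR2 ran from −0.22 to 0.094 for Notch1, −0.26 to 0.11 for Notch2, −0.092 to 0.047 for Notch3, −1.64 to 0.17 for Jag2, −0.031 to 0.20 for Dll1 and −0.19 to 0.35 for Hes1. Heyl gave no value with a Ctrl library left out or with equal peak numbers, since fewer than 2 libraries were then marked. Peak lists hold only what passed the caller, so a missing peak is not shown to be a missing mark.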
